A study of Homo sapiens with 9 samples.

Results

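The highest dose of the CDK12 and CDK13 inhibitor THZ531, 500 nM, was compared with untreated control in 2 human hepatoma cell lines, Hep3B and Huh7, across all genes of the deposited table. The comparison used 4 of the 9 RNA-seq libraries of the series, 1 control and 1 treated library of each line, chosen by their labels alone and paired by line. The series also holds libraries at 250 nM in both lines and 3 libraries of the liver cancer line SNU449 (control, 250 nM and 500 nM), and the control and 500 nM libraries of SNU449 served only as a contrast. The 250 nM libraries of Hep3B and Huh7 were not part of the comparison. Values given below for a gene or list without a control or treated library, ranges apart, come from a fit that adds them. That fit has a term for each dose and tests a different set of genes. When the control or the 500 nM library of a line is left out of it, the 250 nM library of that line stays in. Only 1 library of the dropped condition then remains. The RNA is labelled as polyadenylated and came from cells grown in DMEM with fetal bovine serum.

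Control cells are labelled as having received no treatment, and no vehicle is named. The time of treatment is given in conflicting ways. The label of every treated library reads 48 h, whereas the protocol text puts Hep3B and Huh7 at 24 h and only SNU449 at 48 h. Each condition is 1 library per line, so n = 2 lines, and nothing in the labels says whether control and treated cells of a line were grown as separate cultures on separate days. The p-values below therefore measure only the spread of these 4 libraries. Each line is a single established tumour line and stands for no normal hepatocyte.

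CDK12 and CDK13, each with cyclin K, phosphorylate the C-terminal domain of RNA polymerase II during elongation. Their activity is needed for the polymerase to stay processive through gene bodies and to avoid premature cleavage and polyadenylation at sites within introns. Long genes and genes of homologous recombination are known as the most sensitive to loss of CDK12, and THZ531 is a covalent inhibitor of both kinases.

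Control libraries held 20657610 counts in Hep3B and 14423043 in Huh7, and the libraries at 500 nM held 11582266 and 5701981. A count of 3, taken as the floor of detection, stood for 0.11 CPM (the count scaled by library size and TMM factor) in control Hep3B, 0.304 in treated Hep3B, 0.162 in control Huh7 and 0.764 in treated Huh7, so falls of low genes are the least precise values. Mitochondrially encoded genes took 4.28% of counts in control and 12.4% in treated Hep3B, and 3.85% and 13.1% in Huh7. The 10 highest genes took 7.28% and 16.6% in Hep3B, and 6.59% and 18.4% in Huh7. These shares moved with treatment in both lines, and their part in the results below was not tested.

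A strong and shared response was seen. Of 14627 genes tested, 4964 (33.9%) passed the threshold of an adjusted p of 0.05 in edgeR's quasi-likelihood test with the cell line as a term. Of these, 2859 (19.5% of the genes tested) were higher and 2105 (14.4%) lower at 500 nM. The rises were larger than the falls, with a median log2 fold change of 1.96 among the higher genes and -1.25 among the lower ones. Among the higher genes 788 rose at least 8-fold and 256 at least 32-fold, whereas 38 of the lower genes fell at least 8-fold. Genes past the threshold with at least a 2-fold change in each line numbered 2117 higher (14.5%) and 1041 lower (7.12%). The calls rest on pairing by line: with no line term edgeR called 0 genes (2613 at an unadjusted p under 0.05), limma-voom 0 and DESeq2 1362. Only 1 degree of freedom remained in the paired fit, and the spread of each gene was set wholly by the trend across genes of similar level (a biological coefficient of variation of 0.234 to 0.341).

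The direction split depended on the scaling, the tool and the filter on low counts. With library totals in place of TMM factors the median log2 fold change of all genes moved from -0.09 to -0.85, and 1502 genes were higher and 6089 lower, so that 19.8% of the calls were rises against 57.6% with TMM factors. DESeq2 called 2279 higher and 952 lower, with 70.5% rises, and its size factors used in edgeR gave 3033 higher and 1794 lower (62.8% rises). With no filter beyond 1 count, 2592 of 26853 genes were higher and 2596 lower (50% rises). Because of the scaling, all changes below are relative to the bulk of genes in the same library, and absolute RNA content was not measured.

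The counts themselves shifted towards the higher genes. The 2859 higher genes took 27.5% of counts in control Hep3B and 54.4% in treated Hep3B, and 27.8% and 65.5% in Huh7. The 2105 lower genes went from 14.7% to 4.45% in Hep3B and from 13.5% to 2.78% in Huh7. Since these genes were chosen by the same contrast, the shares describe the libraries and are not a test.

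**Figure D1:**
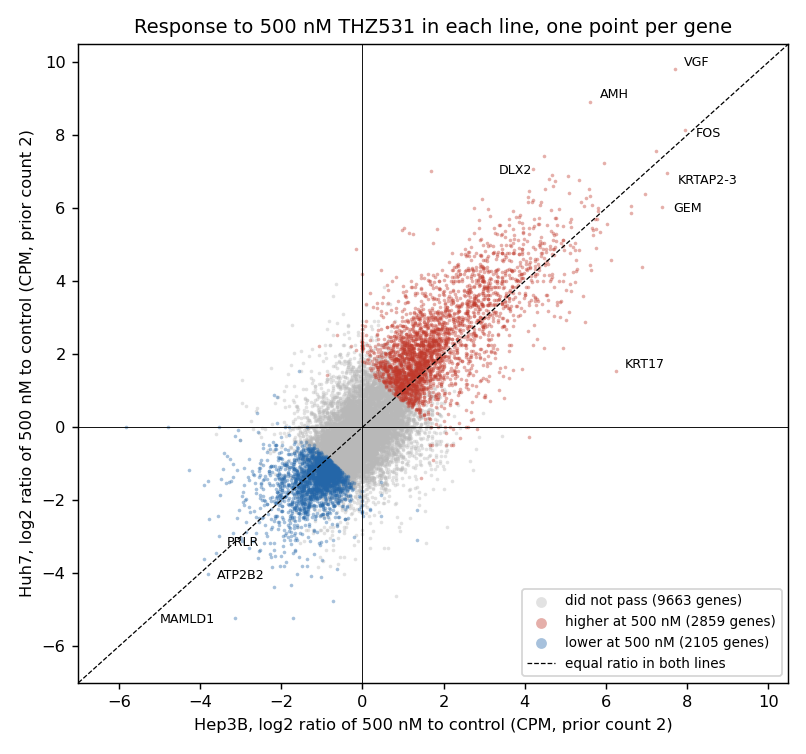
Each point is 1 tested gene, with its log2 ratio of 500 nM to control in Hep3B on the x axis and in Huh7 on the y axis (CPM, prior count 2), coloured by the edgeR call over both lines. Most of the 2859 higher and 2105 lower genes lie in the upper right and lower left parts of the plot, and more of them lie farther from 0 in Huh7 than in Hep3B.

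The response was alike in both lines. The log2 ratios of Hep3B and Huh7, which share no library, had a Pearson correlation of 0.792 and a Spearman correlation of 0.724 across the 14627 genes, and 0.784 and 0.752 across the 7435 genes with at least 50 counts in each library. Genes are not independent replicates, and no p is given. Both lines moved in the same direction in 76.9% of all tested genes. Huh7, the line with the shallower treated library, moved farther than Hep3B in 73.3% of the higher and 69.5% of the lower genes, with median log2 ratios of 2.20 against 1.63 and of -1.42 against -1.11. Both treated libraries lay above both controls in 3541 genes (24.2%) and below both in 3937 (26.9%).

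The targets of the compound were expressed throughout and did not pass the test with TMM factors, while 2 of the 3, CDK12 and CDK13, passed as lower with library totals (list median -1.31). CDK12 stood at 199.9 CPM in control and 134 CPM in treated Hep3B, and 114 and 75.4 CPM in Huh7, a log2 fold change of -0.59 ± 0.37 (SE) with an adjusted p of 0.219. CDK13 stood at 78.1 CPM in control and 54.3 CPM in treated Hep3B, and 41.7 and 27.8 CPM in Huh7 (-0.55 ± 0.35, adjusted p 0.217). CCNK, which encodes cyclin K, stood at 47.9 CPM in control and 60.6 CPM in treated Hep3B, and 50.6 and 62.6 CPM in Huh7. Its log2 fold change of 0.32 ± 0.35 (adjusted p 0.495) was positive with TMM factors and negative with library totals. THZ531 inhibits the kinases and does not delete their genes, so these levels do not check the labels.

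The largest rises among protein-coding genes (mean log2 CPM of at least 3) came from genes with few counts in control cells. VGF, which encodes a secreted neuropeptide precursor, had 0 and 277 counts in Hep3B and 8 and 1984 in Huh7 (control, then treated). Against the floor of 3 counts it was at least 254-fold higher in Hep3B, and it was 1170-fold higher in Huh7 (95% counting interval 593 to 2720). The treated libraries stood far above both controls.

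KRTAP2-3, a hair keratin-associated protein, had 0 and 240 counts in Hep3B and 1 and 92 in Huh7, at least 220-fold higher in Hep3B. AMH, the anti-Müllerian hormone of the TGF-beta family, went from 1.21 to 66.2 CPM in Hep3B and from 0.216 to 169.8 CPM in Huh7 (log2 fold change 7.15 ± 0.49, adjusted p 6.24e-45). The small GTPase gene GEM had 1 and 281 counts in Hep3B and 14 and 230 in Huh7. In all of these genes the controls held 33 counts or fewer while both treated libraries held 92 or more.

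TRAPPC5, a subunit of a vesicle tethering complex, rose from 0.331 to 20.4 CPM in Hep3B and from 0.539 to 45.1 CPM in Huh7 (6.14 ± 0.50, adjusted p 9.39e-32). S100A2, a calcium-binding protein, rose from 0.626 to 31.7 CPM in Hep3B and from 0.701 to 60.6 CPM in Huh7 (6.02 ± 0.46, adjusted p 2.54e-35). The homeobox factor gene DLX2 rose from 1.21 to 32.7 CPM in Hep3B and from 0.378 to 56.8 CPM in Huh7 (5.72 ± 0.46, adjusted p 1.04e-32), which is 26.9-fold in Hep3B and 150-fold in Huh7. VMO1 rose as well, with 2 and 45 counts in Hep3B and 6 and 164 in Huh7. KRT17, an epithelial keratin, passed the test through Hep3B alone. It had 32 and 984 counts in Hep3B and 0 and 1 in Huh7, so Huh7 gave no measurement of it. In the fit that adds the 250 nM libraries, KRT17 had a log2 fold change of 5.35 without the 500 nM Hep3B library. That value rests on the 1 count of treated Huh7, so it does not show that the rise holds without Hep3B.

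**Figure D2:**
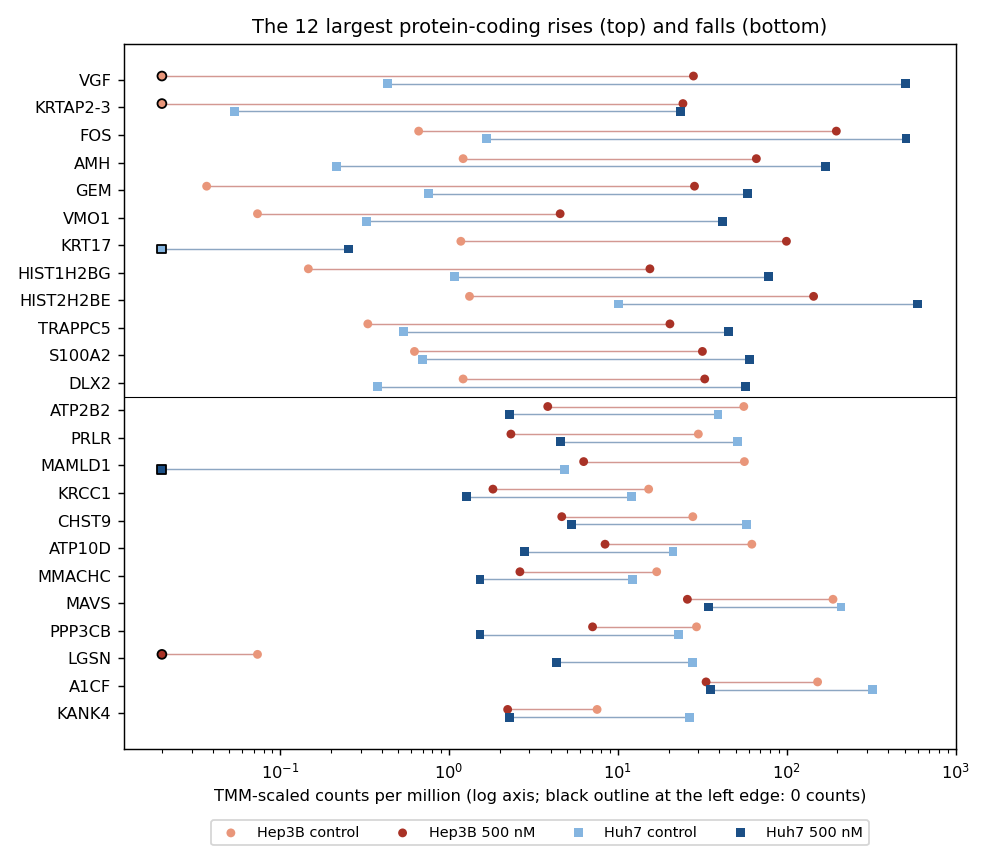
TMM-scaled CPM (log axis) of the 12 protein-coding genes with the largest rises and the 12 with the largest falls, 1 row per gene, with circles for Hep3B and squares for Huh7, light for control and dark for 500 nM. The lines joining control and treated run to the right in the upper block and to the left in the lower block in both lines, and KRT17 in Huh7 and LGSN in Hep3B sit at or near 0.

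Immediate early genes, the transcription factors and feedback regulators that cells switch on within minutes of a stimulus, were the list with the highest median. Of 27 listed genes 25 were tested, 21 were higher and none lower (background 19.5% and 14.4%), with a median log2 fold change of 2.92 against -0.09 for all genes. With library totals 17 were higher. FOS, a subunit of the AP-1 factor, rose from 0.662 to 197 CPM in Hep3B and from 1.67 to 509 CPM in Huh7, a log2 fold change of 8.22 ± 0.54 with an adjusted p of 1.41e-48. Its partner genes FOSB (from 0.552 to 23.6 CPM in Hep3B and from 1.46 to 77.7 CPM in Huh7; 5.58 ± 0.45, adjusted p 1.36e-32) and JUNB (from 28.2 to 766 CPM in Hep3B and from 19 to 1016 CPM in Huh7; 5.25 ± 0.49, adjusted p 5e-24) rose too. The zinc-finger factor EGR1 rose from 29.5 to 391 CPM in Hep3B and from 8.41 to 520.0 CPM in Huh7 (4.82 ± 0.47, adjusted p 5.64e-22). No treated library overlapped a control in these genes.

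Other rises in the list were IER2 (4.97), IER3 (4.85), IER5 (4.41), KLF6 (4.38) and the stress factor ATF3 (4.20), all on the log2 scale. The growth regulator MYC rose less, from 132 to 182 CPM in Hep3B and from 68.8 to 269 CPM in Huh7 (1.21 ± 0.40, adjusted p 0.00972), and lost the call without the treated Huh7 library (log2 fold change 0.66, adjusted p 0.105), without the control Huh7 library (log2 fold change 0.57, adjusted p 0.276) and with library totals (log2 fold change 0.45, adjusted p 0.389). SRF, which encodes the factor that binds serum response elements, had 38.3 CPM in control and 65.6 CPM in treated Hep3B, and 49 and 85.1 CPM in Huh7 and did not pass (0.78 ± 0.35, adjusted p 0.0699). DUSP5, KLF2 and DUSP2 did not pass either.

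The sequences before the start of 4 of these risers are shown because short motifs known from early response genes can be read in them. That of 1 gene that fell is shown beside them. The sequences were picked and stand for neither the risers nor the falls as a whole. They are the 250 bases before the gene start from RefSeq (GRCh38.p14), 5′ to 3′ on the strand of the gene, in lower case, with matches to searched motifs in capitals. FOS lies at chr14:75278578-75278827 on the plus strand, JUNB at chr19:12791236-12791485 plus, VGF at chr7:101165570-101165819 minus, EGR1 at chr5:138465229-138465478 plus and MAVS at chr20:3846584-3846833 plus.
FOS: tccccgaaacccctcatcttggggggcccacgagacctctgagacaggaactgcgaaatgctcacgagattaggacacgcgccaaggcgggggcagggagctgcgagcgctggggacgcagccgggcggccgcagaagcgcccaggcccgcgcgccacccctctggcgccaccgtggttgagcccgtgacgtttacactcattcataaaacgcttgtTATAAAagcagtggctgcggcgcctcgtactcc
JUNB: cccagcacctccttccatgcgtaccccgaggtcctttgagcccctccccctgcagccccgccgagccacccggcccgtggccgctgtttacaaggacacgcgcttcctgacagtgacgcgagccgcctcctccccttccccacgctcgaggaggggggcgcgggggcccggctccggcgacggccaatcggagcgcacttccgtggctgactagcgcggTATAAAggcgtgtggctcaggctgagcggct
VGF: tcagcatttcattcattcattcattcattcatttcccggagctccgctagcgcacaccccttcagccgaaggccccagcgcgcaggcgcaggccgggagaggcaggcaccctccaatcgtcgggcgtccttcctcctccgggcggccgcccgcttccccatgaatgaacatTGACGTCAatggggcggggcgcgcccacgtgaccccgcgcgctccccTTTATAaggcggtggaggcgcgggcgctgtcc
EGR1: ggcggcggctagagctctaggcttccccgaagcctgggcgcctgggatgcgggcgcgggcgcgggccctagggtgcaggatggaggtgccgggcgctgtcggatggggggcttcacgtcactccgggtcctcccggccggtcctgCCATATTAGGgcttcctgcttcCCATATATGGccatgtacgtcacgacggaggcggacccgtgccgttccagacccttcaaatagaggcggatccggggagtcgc
MAVS: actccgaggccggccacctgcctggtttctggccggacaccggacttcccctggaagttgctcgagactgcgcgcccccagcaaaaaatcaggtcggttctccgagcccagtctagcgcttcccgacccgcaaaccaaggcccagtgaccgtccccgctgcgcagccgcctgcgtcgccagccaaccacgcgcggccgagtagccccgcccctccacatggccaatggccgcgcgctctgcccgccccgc

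Searched on both strands were the TATA box (TATAAA), the cAMP response element (TGACGTCA), the AP-1 element (TGANTCA) and the core of the serum response element, by its named pattern. The capitals mark a TATA box in FOS, JUNB and VGF (in VGF its reverse complement), a cAMP response element in VGF and a pair of serum response element cores in EGR1. The TATA boxes begin at position -33 in FOS, -31 in JUNB and -32 in VGF, counted from the gene start. None of the motifs occurs in the MAVS window, but other genes that fell held some of them.

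Of the 14627 tested genes 9992 matched a RefSeq promoter by symbol or identifier. In windows of 300 bases (250 before to 50 after the start), TATAAA was present in 5.68% of these promoters. Among genes with a promoter it was present in 9.11% of the 1526 higher and 4.99% of the 1582 lower ones. Of the 461 higher genes that rose at least 16-fold, only 88 had a promoter to search, and 18 of these held TATAAA (20.5%). Of the 12 named protein-coding falls 11 had a promoter, and 3 of these held TATAAA (27.3%) and 2 an AP-1 element. Of the 12 named protein-coding rises 7 had a promoter, and 3 of these held TATAAA (42.9%) and 1 an AP-1 element. Over all 35116 promoters of the RefSeq table, expressed or not, it was present in 11.5%. The serum response element core was present in 0.991% of tested, 1.97% of higher and 0.948% of lower genes. The cAMP response element was present in 3.29%, 4.19% and 3.10%, and the AP-1 element in 4.49%, 5.44% and 5.06%. Of the 19 immediate early genes with a promoter, 5 held TATAAA. A match of letters is a description and shows no binding. Bases outside these windows were not searched, so a window without a match does not show that a gene lacks the element.

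On a list of growth arrest and damage response genes 9 of 17 tested genes were higher and 1 lower (median 1.05, background 19.5% and 14.4%), and 5 were higher and 5 lower with library totals. GADD45B, which encodes a stress sensor that binds cell cycle proteins, rose from 21.5 to 664 CPM in Hep3B and from 39.3 to 1789.6 CPM in Huh7 (5.23 ± 0.50, adjusted p 3.38e-23), and GADD45A rose from 8.43 to 334 CPM in Hep3B and from 19.6 to 395 CPM in Huh7 (4.82 ± 0.45, adjusted p 1.1e-23). CDKN1A, which encodes the cyclin-dependent kinase inhibitor p21, rose from low levels, from 4.67 to 18.4 CPM in Hep3B and from 2.1 to 19.6 CPM in Huh7 (2.55 ± 0.43, adjusted p 9.17e-08). The treated libraries were the highest for each gene in both lines.

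MDM2, which encodes a ubiquitin ligase, moved the other way. It fell from 95.7 to 34.1 CPM in Hep3B and from 64.8 to 21.6 CPM in Huh7 (-1.53 ± 0.36, adjusted p 0.000221). The members that rose most, the GADD45 genes and PLK2 (4.44), are known to answer several kinds of stress.

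On a list of 18 tested genes of the BCL2 family and related regulators of cell death 5 were higher (27.8%) and 3 lower (16.7%), near the background of 19.5% and 14.4%, and 3 were higher and 4 lower when either Huh7 library was left out. Log2 fold changes on the list ran from -2.07 to 6.69, and the member with the largest rise is not among those named here. MCL1, a short-lived survival protein, rose from 283 to 693 CPM in Hep3B and from 224 to 505 CPM in Huh7 (1.23 ± 0.41, adjusted p 0.0115), and the BH3-only gene BMF rose from 71.4 to 137 CPM in Hep3B and from 33.2 to 180.0 CPM in Huh7 (1.68 ± 0.38, adjusted p 0.000126). XIAP, the caspase inhibitor, fell from 30.5 to 12.5 CPM in Hep3B and from 36 to 4.07 CPM in Huh7 (-2.07 ± 0.39, adjusted p 2.64e-06), and the survival gene BCL2L1 fell from 363 to 173 CPM in Hep3B and from 367 to 162 CPM in Huh7 (-1.12 ± 0.40, adjusted p 0.0184). With library totals 1 was higher and 5 lower, and MCL1 had a log2 fold change of 0.47 (adjusted p 0.332) and BMF a log2 fold change of 0.92 (adjusted p 0.0659). Without the control Hep3B library the rise of MCL1 was a log2 fold change of 1.03 (adjusted p 0.0565).

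Genes of the integrated stress and unfolded protein responses gave 8 higher and 1 lower of 17 tested (median 0.91), with 1 higher and 4 lower under library totals and 5 higher without the control Huh7 library. The background was 19.5% higher and 14.4% lower. PPP1R15A, which directs a phosphatase to the initiation factor eIF2 alpha, rose from 33.4 to 134 CPM in Hep3B and from 52.4 to 310.4 CPM in Huh7 (2.28 ± 0.39, adjusted p 1.38e-07). ATF4, the factor of the integrated stress response, rose from 198 to 466 CPM in Hep3B and from 215 to 785 CPM in Huh7 (1.55 ± 0.42, adjusted p 0.00129), with a log2 fold change of 0.79 (adjusted p 0.0954) by library totals. XBP1 fell (-1.17), and DDIT3, which encodes CHOP, did not pass (-0.20).

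Among NF-kB targets, 5 of 13 tested were higher (38.5%) and 1 lower (7.69%; background 19.5% and 14.4%). The list's median of 0.38 turned to -0.37 with library totals. Its log2 fold changes ran from -1.06 to 8.66, and the member with the largest rise is not among those named here. The chemokine gene CXCL2 rose from 1.99 to 30.9 CPM in Hep3B and from 0.701 to 44.8 CPM in Huh7 (4.82 ± 0.44, adjusted p 2.88e-25) and CXCL8 rose from 27.2 to 175 CPM in Hep3B and from 40.9 to 584 CPM in Huh7 (3.26 ± 0.43, adjusted p 1.48e-12). NFKBIA, which encodes the inhibitor of NF-kB, did not pass, with 0.63 by TMM factors and a negative value with library totals.

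Most tested histone genes with polyadenylated transcripts passed as higher. Of 25 listed genes 21 were tested, 17 were higher, none was lower and 4 did not pass (median 1.86, background 19.5% and 14.4%), and 11 were higher with library totals. HIST2H2BE, a histone H2B gene, rose from 1.32 to 144 CPM in Hep3B and from 10.1 to 598 CPM in Huh7 (6.29 ± 0.49, adjusted p 1.83e-34), and HIST1H2BG rose from 0.147 to 15.5 CPM in Hep3B and from 1.08 to 77.9 CPM in Huh7 (6.32 ± 0.48, adjusted p 1.71e-35). The linker histone gene HIST1H1C rose from 6.66 to 58.8 CPM in Hep3B and from 69.6 to 421 CPM in Huh7 (2.86 ± 0.40, adjusted p 6.73e-11), and each treated library lay above the control of its line. Histone genes have near-identical copies, and reads shared between them may have been split or dropped in counting.

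A small set of TXNIP, arrestin-domain and TSC22D genes gave 5 higher and none lower of 7 (background 19.5% and 14.4%). TSC22D3, known as a glucocorticoid-induced leucine zipper gene, rose from 5.78 to 174 CPM in Hep3B and from 29.8 to 325 CPM in Huh7 (4.16 ± 0.43, adjusted p 9.22e-20). TXNIP, the inhibitor of thioredoxin and of glucose uptake, rose from 114 to 406 CPM in Hep3B and from 2.8 to 127 CPM in Huh7 (3.54 ± 0.46, adjusted p 1.44e-12). Its rise was far larger in Huh7, whose control had 2.80 CPM. With DESeq2 the rise of TXNIP did not pass (log2 fold change 3.73, adjusted p 0.0609). ARRDC1 had -0.58 and did not pass.

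Metallothioneins, small metal-binding proteins, were higher in 7 of 8 tested genes (background 19.5%), but 5 of the 8 had 3 counts or fewer in both Hep3B libraries. The values are thus mostly those of Huh7, and 1 gene was higher when the treated Huh7 library was left out and 3 with library totals. MT2A, which had counts in both lines, rose from 2.43 to 21.7 CPM in Hep3B and from 99.8 to 575 CPM in Huh7 (2.82 ± 0.42, adjusted p 5.4e-10). MT1G stood at 0.0368 CPM in control and 0.203 CPM in treated Hep3B, and 33.6 and 252 CPM in Huh7.

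Liver-specific genes parted by role. Secreted hepatocyte products were higher in 18 of 22 tested genes and lower in 1 (median 1.58, background 19.5% and 14.4%). With library totals 10 were higher, and 8 without the control Huh7 library. Transcription factors of the hepatocyte lineage were lower in 10 of 15 tested genes and higher in 1 (median -1.22). No test compared these lists.

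ALB, which encodes serum albumin, rose from 15669 to 34072 CPM in Hep3B and from 2229 to 12564 CPM in Huh7 (1.81 ± 0.54, adjusted p 0.00477). APOE rose from 416 to 1540.3 CPM in Hep3B and from 517 to 3796 CPM in Huh7 (2.38 ± 0.47, adjusted p 6.09e-06), and APOA1, the main protein of high-density lipoprotein, rose from 87.7 to 206 CPM in Hep3B and from 315 to 2391 CPM in Huh7 (2.08 ± 0.45, adjusted p 5.02e-05). In each of these genes the treated library was the higher one of its line. APOB, which encodes the long structural protein of low-density lipoprotein, was the exception. It fell from 4997 to 1405 CPM in Hep3B and from 2522 to 1532 CPM in Huh7 (-1.28 ± 0.47, adjusted p 0.0241) and lost the most CPM of all called genes, while AFP (from 505 to 973 CPM in Hep3B and from 11766 to 52297 CPM in Huh7; 1.55 ± 0.54, adjusted p 0.0161) was among the 5 that gained the most. The rises of ALB and AFP did not pass without the control Huh7 library, at a log2 fold change of 1.19 (adjusted p 0.139) and a log2 fold change of 1.03 (adjusted p 0.195). The fall of APOB did not pass without the control Hep3B library (log2 fold change -0.90, adjusted p 0.122), and with DESeq2 size factors in edgeR APOB had a log2 fold change of -1.20 (adjusted p 0.0614) and AFP a log2 fold change of 1.62 (adjusted p 0.0503).

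HNF4A, a nuclear receptor that drives liver genes, fell from 210.0 to 109 CPM in Hep3B and from 243 to 85.8 CPM in Huh7 (-1.22 ± 0.39, adjusted p 0.00752), and NR1H4, the bile acid receptor gene, fell from 30.6 to 3.24 CPM in Hep3B and from 14 to 6.88 CPM in Huh7 (-2.18 ± 0.43, adjusted p 8.92e-06). Both treated libraries lay below both controls for each of these factors. CEBPA, a single-exon gene, fell as well (-1.24 ± 0.39, adjusted p 0.00688). FOXA2, a pioneer factor, rose from 30.1 to 70.7 CPM in Hep3B and from 64.2 to 130.4 CPM in Huh7 (1.13 ± 0.36, adjusted p 0.00806), and its relative FOXA1 had -0.83 and did not pass. Without the control Hep3B library NR1H4 had a log2 fold change of -0.99 (adjusted p 0.0856), CEBPA a log2 fold change of -0.78 (adjusted p 0.104) and FOXA2 a log2 fold change of 0.84 (adjusted p 0.0699), all short of the threshold, and FOXA2 also missed it with library totals (log2 fold change 0.36, adjusted p 0.483).

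Complement genes, also made by the liver, gave 6 higher and 1 lower of 15 tested. With library totals 1 was higher and 2 lower, and 4 were higher without the treated Huh7 library. C2, of the classical pathway, rose from 19.7 to 47.1 CPM in Hep3B and from 5.34 to 34.1 CPM in Huh7 (1.93 ± 0.37, adjusted p 3.38e-06), and the protease gene MASP1 fell from 80.2 to 27.2 CPM in Hep3B and from 216 to 125 CPM in Huh7 (-1.17 ± 0.38, adjusted p 0.00847), a call lost without the control Hep3B library (log2 fold change -0.78, adjusted p 0.0991).

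Members of both the mesenchymal and the epithelial list rose. Over all tested genes 19.5% were higher and 14.4% lower. Mesenchymal genes were higher in 9 of 12 tested and lower in none (5 higher with library totals). SNAI1, a repressor of epithelial genes, rose from 2.13 to 37.2 CPM in Hep3B and from 8.95 to 131 CPM in Huh7 (3.99 ± 0.40, adjusted p 2.25e-21), and the actin-binding protein gene TAGLN rose from 43.4 to 661 CPM in Hep3B and from 804 to 2412 CPM in Huh7 (2.75 ± 0.48, adjusted p 2.75e-07). On the epithelial list 7 of 15 were higher and 3 lower, and its median of 0.54 turned to -0.23 with library totals. Without the control Hep3B library 3 of 17 epithelial genes were higher and 4 lower. The keratin gene KRT19 rose from 206 to 561 CPM in Hep3B and from 231 to 953 CPM in Huh7 (1.74 ± 0.42, adjusted p 0.000315), while the splicing regulator gene ESRP2 fell from 53.5 to 25.6 CPM in Hep3B and from 48.3 to 15.3 CPM in Huh7 (-1.35 ± 0.36, adjusted p 0.00127).

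The labelled cell type was checked against its markers. All 8 hepatocyte markers were detected in each of the 4 libraries, with a summed level of 22800 and 39600 CPM in control and treated Hep3B and of 19900 and 80300 CPM in Huh7. The 5 immune markers summed to 69.3 and 136 CPM in Hep3B and to 119 and 586 CPM in Huh7, nearly all of it LYZ. CD3E had 3 counts or fewer in all 4 libraries, and PTPRC had 0, 0, 12 and 0. The 3 endothelial markers summed to between 0.405 and 3.31 CPM, and the 4 fibroblast markers summed to 20.8 and 39.3 CPM in Hep3B and to 125 and 540 CPM in Huh7, with DCN at 1 count or none. The part of other cells in the mesenchymal rises was not tested. In bulk RNA, fewer cells of a kind and less RNA per cell cannot be told apart.

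Genome maintenance genes were nearly all on the lower side where they passed the test. Of 31 homologous recombination and Fanconi genes 14 were lower and none higher (background 14.4% lower), with a median of -0.76. The lower count was 6 with DESeq2 and 26 with library totals. BRCA1 fell from 59.5 to 22.2 CPM in Hep3B and from 38.5 to 7.64 CPM in Huh7 (-1.83 ± 0.37, adjusted p 1.3e-05), BRCA2 fell from 32.6 to 14.3 CPM in Hep3B and from 40.4 to 13.5 CPM in Huh7 (-1.38 ± 0.36, adjusted p 0.00111), and XRCC2, a recombination factor gene, fell from 28.3 to 8 CPM in Hep3B and from 33.9 to 7.64 CPM in Huh7 (-1.97 ± 0.38, adjusted p 5.08e-06). Both treated libraries lay below both controls in all of them. PALB2 (-0.41) and FANCD2 (-0.86) did not pass.

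Of 17 checkpoint genes 5 were lower (29.4%, background 14.4%) and none higher (background 19.5%), with 2 lower by DESeq2 and 15 with library totals. ATR, the kinase that answers stalled replication forks, fell from 51.9 to 12.6 CPM in Hep3B and from 35.6 to 9.68 CPM in Huh7 (-1.97 ± 0.37, adjusted p 2.51e-06), and ATM, the kinase of double-strand breaks, fell from 45.3 to 24 CPM in Hep3B and from 51.2 to 21.4 CPM in Huh7 (-1.08 ± 0.36, adjusted p 0.0103). CHEK1 had 38.5 CPM in control and 32.4 CPM in treated Hep3B, and 36.4 and 24.2 CPM in Huh7 and did not pass (-0.41). Excision and mismatch repair genes gave 7 lower and 1 higher of 24, with 3 lower by DESeq2, 13 with library totals and 4 without the treated Huh7 library. LIG3, a DNA ligase, had the smallest p among them (from 55.8 to 20.5 CPM in Hep3B and from 47.1 to 15 CPM in Huh7; -1.54 ± 0.36, adjusted p 0.000193).

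DNA replication genes gave 14 lower (35.9%, background 14.4%) and 2 higher (5.13%, background 19.5%) of 39 tested. Library totals gave 24 lower and none higher. POLA2, a subunit of the polymerase that starts each strand, fell from 50.7 to 18.5 CPM in Hep3B and from 30 to 5.35 CPM in Huh7 (-1.89 ± 0.38, adjusted p 8.92e-06), and GINS1, of the replicative helicase, fell from 32.1 to 12.5 CPM in Hep3B and from 52.2 to 9.93 CPM in Huh7 (-1.85 ± 0.37, adjusted p 1.1e-05). The helicase subunit genes MCM2 (from 245 to 462 CPM in Hep3B and from 175 to 625 CPM in Huh7; 1.38 ± 0.41, adjusted p 0.0046) and MCM7 (1.42 ± 0.43, adjusted p 0.00537) rose. The calls of both ended with library totals, where MCM2 had a log2 fold change of 0.61 (adjusted p 0.205) and MCM7 a log2 fold change of 0.65 (adjusted p 0.15), and that of MCM2 also without the control Huh7 library (log2 fold change 0.97, adjusted p 0.0842). Of 24 mitosis genes 2 were higher (CDC20 and KIF23; 8.33%) and 1 lower (KIF11; 4.17%), both shares below those of all genes.

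Of 30 kinases and elongation factors acting on RNA polymerase II, 5 were higher (16.7%) and 2 lower (6.67%), shares below those of all genes (19.5% and 14.4%), with 3 higher and 15 lower with library totals. HEXIM1, the inhibitor of the elongation kinase P-TEFb, rose from 88.8 to 592 CPM in Hep3B and from 91.4 to 968 CPM in Huh7 (3.07 ± 0.44, adjusted p 1.51e-10), and LARP7, of the RNA particle that holds P-TEFb inactive, fell from 33.7 to 12.9 CPM in Hep3B and from 27.6 to 13.2 CPM in Huh7 (-1.23 ± 0.37, adjusted p 0.00432). SUPT5H, a pausing and elongation factor, rose from 191 to 504 CPM in Hep3B and from 208 to 1122 CPM in Huh7 (1.92 ± 0.43, adjusted p 8.47e-05). CDK11A (3.31) and CDK11B (1.43) are near-identical copies, so their separate values are uncertain, and with library totals CDK11B had a log2 fold change of 0.67 (adjusted p 0.185).

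Factors of 3′ end formation moved both ways, with 4 higher and 5 lower of 17 (1 higher and 11 lower with library totals). These are 23.5% and 29.4%, beside 19.5% and 14.4% of all genes. PCF11, a termination factor, rose from 46.9 to 173 CPM in Hep3B and from 58.7 to 298 CPM in Huh7 (2.11 ± 0.39, adjusted p 1.35e-06), and CLP1 rose from 24.2 to 47.1 CPM in Hep3B and from 54.4 to 313 CPM in Huh7 (1.75 ± 0.39, adjusted p 7.67e-05; with library totals log2 fold change 0.98, adjusted p 0.0504). CSTF3 fell from 59.3 to 16.8 CPM in Hep3B and from 59.5 to 8.15 CPM in Huh7 (-2.29 ± 0.38, adjusted p 3.44e-08), and CPSF3, the nuclease of pre-mRNA cleavage, fell from 63.7 to 23.2 CPM in Hep3B and from 43.1 to 16.8 CPM in Huh7 (-1.41 ± 0.36, adjusted p 0.000691). Of 11 Integrator subunits 2 were higher and 2 lower (18.2% each), near the shares of all genes. The falls were INTS9 (-1.54) and INTS8 (-1.15). Of 23 nuclear pore genes 6 were lower (26.1%) and none higher, led by NUP37 (-1.50 ± 0.39, adjusted p 0.000827). On that list 18 were lower with library totals and 14 in the fit with the 250 nM libraries.

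All 13 mitochondrially encoded protein genes were higher (median 2.04, background 19.5% higher and 14.4% lower), 12 of them also with library totals. MT-CO1, a subunit of cytochrome c oxidase, rose from 4248 to 20434 CPM in Hep3B and from 6127 to 43926 CPM in Huh7 (2.55 ± 0.55, adjusted p 5e-05), and MT-ND4 rose from 7303 to 33735 CPM in Hep3B and from 7312 to 39219 CPM in Huh7 (2.32 ± 0.55, adjusted p 0.000267). These genes are transcribed by a separate polymerase, and each treated library lay above both controls. Of the nuclear genes of the respiratory chain 14 of 29 were higher and none lower, with 5 higher and 2 lower under library totals.

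Cytosolic ribosomal protein genes, short and highly expressed, were higher in 58 of 75 and lower in none (median 1.36, background 19.5% and 14.4%), and 26 were higher with library totals. Their summed share of counts rose from 3.08% to 5.16% in Hep3B and from 3.14% to 5.46% in Huh7. RPLP0 rose from 583 to 2078 CPM in Hep3B and from 593 to 4819.9 CPM in Huh7 (2.43 ± 0.48, adjusted p 6.58e-06), and RPS15 rose from 294 to 1151 CPM in Hep3B and from 232 to 1568 CPM in Huh7 (2.36 ± 0.45, adjusted p 2.27e-06). Host transcripts of small nucleolar RNAs and nuclear long noncoding RNAs gave 14 higher and none lower of 19 (6 higher with library totals), among them SNHG1 (2.86 ± 0.45) and MALAT1 (2.43 ± 0.43).

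Glycolysis enzymes gave 9 higher and 2 lower of 19 (background 19.5% and 14.4%), and 3 and 4 with library totals. Without the control Hep3B library 5 were higher, against 11 in the same fit with that library. GAPDH, a common reference gene, rose from 2479 to 11124 CPM in Hep3B and from 2439.7 to 20705 CPM in Huh7 (2.63 ± 0.53, adjusted p 1.18e-05). LDHA, which turns pyruvate into lactate, fell from 543 to 247 CPM in Hep3B and from 632 to 276 CPM in Huh7 (-1.16 ± 0.41, adjusted p 0.0176).

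Counts on the signalling lists stand beside a background of 19.5% higher and 14.4% lower. On the Hippo list 3 of 20 genes were higher and 4 lower, and the YAP targets CYR61 (from 32.8 to 432 CPM in Hep3B and from 192 to 1609 CPM in Huh7; 3.39 ± 0.45, adjusted p 5.14e-12) and CTGF (from 126 to 647 CPM in Hep3B and from 245 to 4344 CPM in Huh7; 3.26 ± 0.49, adjusted p 1.19e-09) rose, as did ANKRD1 (1.86). YAP1 itself fell from 139 to 91.9 CPM in Hep3B and from 145 to 55.3 CPM in Huh7 (-0.99 ± 0.37, adjusted p 0.0284), and TEAD3, AMOTL1 and LATS1 fell too. The call of YAP1 ended with DESeq2 (log2 fold change -0.92, adjusted p 0.0507), without the control Huh7 library (log2 fold change -0.76, adjusted p 0.1) and without the treated one (log2 fold change -0.67, adjusted p 0.0966). With library totals 3 on the list were higher and 11 lower.

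On the TGF-beta and BMP list of 23 (17.4% higher, 26.1% lower), ID2, a target gene that encodes an inhibitor of transcription factors, rose from 104 to 382 CPM in Hep3B and from 143 to 1042 CPM in Huh7 (2.37 ± 0.43, adjusted p 7.23e-07). The shared signal carrier SMAD4 fell from 38.5 to 14.1 CPM in Hep3B and from 60.9 to 19.1 CPM in Huh7 (-1.56 ± 0.36, adjusted p 0.00016), and the receptor gene BMPR2 fell from 38 to 20.1 CPM in Hep3B and from 87.9 to 23.2 CPM in Huh7 (-1.41 ± 0.36, adjusted p 0.000742). In all 4 were higher and 6 lower, or 2 and 14 with library totals. Receptor tyrosine kinases gave 6 lower and none higher of 18. ERBB3 fell from 228 to 70.6 CPM in Hep3B and from 159.7 to 38.2 CPM in Huh7 (-1.87 ± 0.39, adjusted p 1.65e-05), EPHB4 fell from 128 to 30.9 CPM in Hep3B and from 117 to 44.6 CPM in Huh7 (-1.73 ± 0.37, adjusted p 4.3e-05), and ERBB2 did not pass (-0.55).

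**Figure D3:**
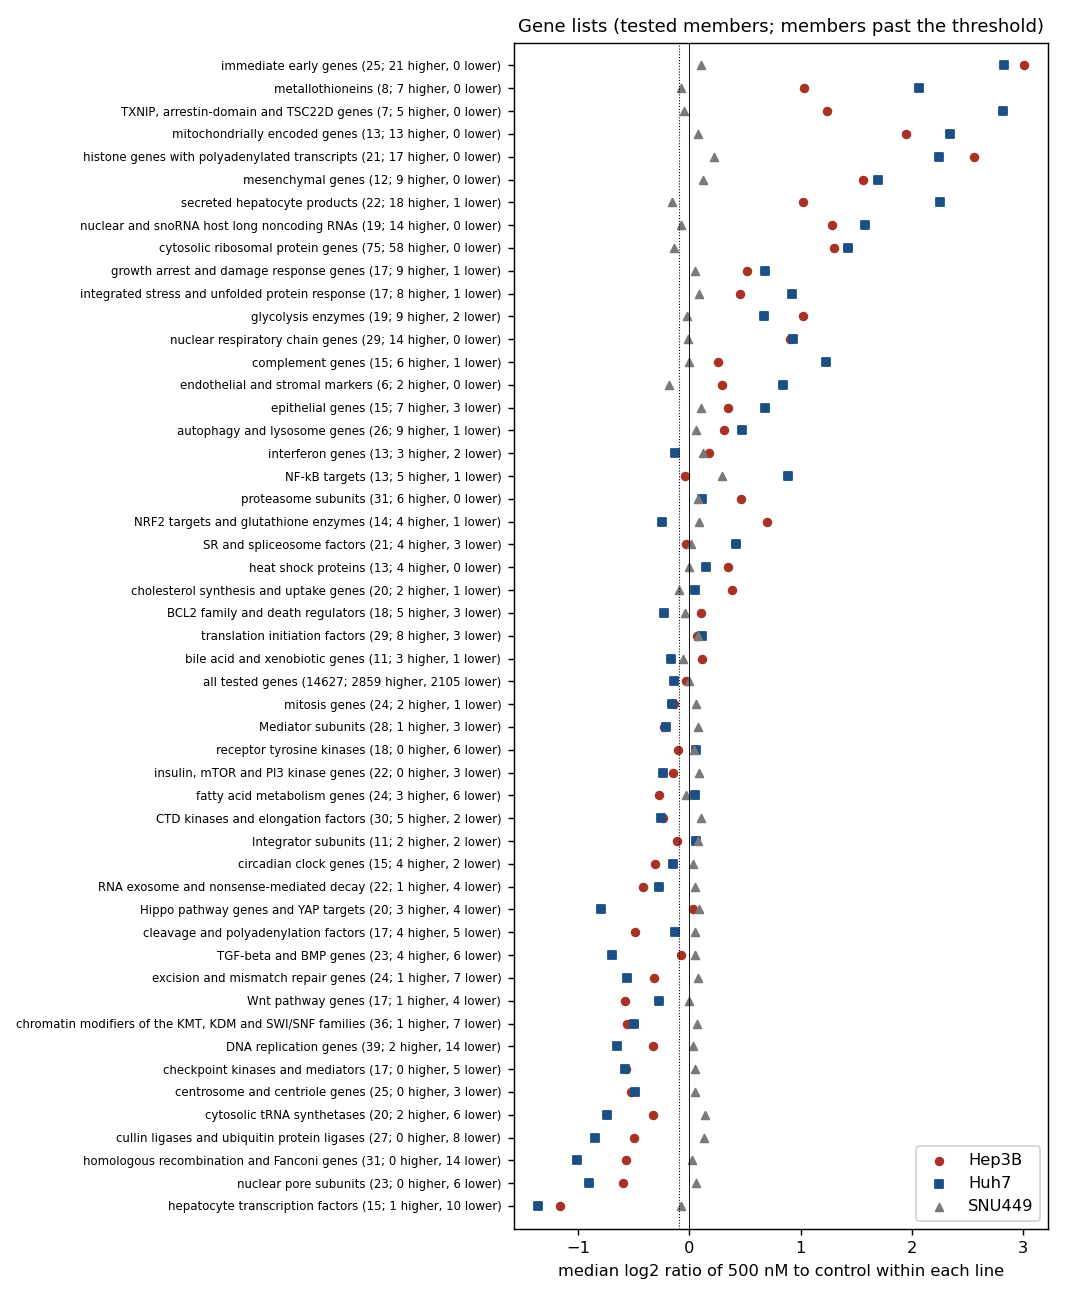
Median log2 ratio of 500 nM to control of each gene list, with circles for Hep3B, squares for Huh7 and triangles for SNU449, and in brackets the members tested and called; the dotted line marks the fitted median of all genes. Immediate early genes lie near 3 in both lines and hepatocyte transcription factors below -1, while the SNU449 medians of most lists lie close to 0.

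The largest falls among protein-coding genes were smaller than the rises. ATP2B2, a calcium pump of the plasma membrane, fell from 55.8 to 3.85 CPM in Hep3B and from 39.2 to 2.29 CPM in Huh7 (-3.95 ± 0.43, adjusted p 4.45e-18). PRLR, the prolactin receptor, fell from 30 to 2.33 CPM in Hep3B and from 51.2 to 4.58 CPM in Huh7 (-3.58 ± 0.42, adjusted p 1.93e-15). MAMLD1, a transcriptional co-activator, had 1527 and 62 counts in Hep3B and 90 and 0 in Huh7. In these genes each treated library kept at most 0.112 times the CPM of its control.

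MAVS, the mitochondrial adaptor of RNA sensing, was the highest expressed gene of this group in Hep3B, and fell from 188 to 25.8 CPM in Hep3B and from 210.0 to 34.6 CPM in Huh7 (-2.73 ± 0.40, adjusted p 2.45e-10). A1CF, a cofactor of the enzyme that edits APOB messenger RNA, fell from 152 to 33.3 CPM in Hep3B and from 322 to 35.4 CPM in Huh7 (-2.68 ± 0.40, adjusted p 1.28e-09). MMACHC, which processes vitamin B12, fell from 17 to 2.63 CPM in Hep3B and from 12.2 to 1.53 CPM in Huh7 (-2.80 ± 0.49, adjusted p 2.78e-07), and PPP3CB, a catalytic subunit of calcineurin, fell from 29.3 to 7.09 CPM in Hep3B and from 23 to 1.53 CPM in Huh7 (-2.70 ± 0.43, adjusted p 9.83e-09). The sulfotransferase gene CHST9 (-2.97), the flippase gene ATP10D (-2.90), KRCC1 (-3.12) and KANK4 (-2.55) completed the group. LGSN passed through Huh7 alone, with 2 and 0 counts in Hep3B and 513 and 17 in Huh7, and had a log2 fold change of -1.27 (adjusted p 0.631) without the control and a log2 fold change of -3.78 (adjusted p 0.34) without the treated Huh7 library.

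By lost CPM, the leading genes after APOB were RPS6KA3, a growth factor-activated kinase (from 54.4 to 32.2 CPM in Hep3B and from 1271 to 301 CPM in Huh7; -1.42 ± 0.42, adjusted p 0.00422), ACSL4, which activates long fatty acids (from 872 to 222 CPM in Hep3B and from 298 to 60.9 CPM in Huh7; -2.13 ± 0.42, adjusted p 6.51e-06), MBNL3, a splicing regulator (from 740.3 to 202 CPM in Hep3B and from 320.3 to 86.6 CPM in Huh7; -1.88 ± 0.41, adjusted p 6.31e-05), and CLTC, the clathrin heavy chain (from 723 to 341 CPM in Hep3B and from 478 to 147 CPM in Huh7; -1.39 ± 0.41, adjusted p 0.00422). MT-RNR2, the large mitochondrial ribosomal RNA, gained CPM, from 3996 to 30239 CPM in Hep3B and from 1281 to 33455 CPM in Huh7 (3.81 ± 0.60, adjusted p 5.51e-09). Without the treated Huh7 library RPS6KA3 had a log2 fold change of -0.75 (adjusted p 0.0697).

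The share of called genes varied with gene length. Among 1060 tested protein-coding genes under 5 kb, 528 were higher (49.8%) and 27 lower (2.55%), with a median log2 fold change of 1.06. Among 1530 genes of 100 to 200 kb, 78 were higher (5.10%) and 401 lower (26.2%), with a median of -0.53. The lower share did not go on growing in longer genes and was 18.8% from 200 to 500 kb and 17.6% in the 159 genes over 500 kb. Across 12590 protein-coding genes the Spearman correlation of gene length with the log2 ratio was -0.286 in Hep3B and -0.436 in Huh7. In SNU449 it was 0.108 across 12015 genes. These are descriptions across genes and carry no p.

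Exon number followed length in part. Genes with 1 exon were higher in 124 of 219 cases (56.6%) and those with over 30 exons in 48 of 603 (7.96%). Within genes under 5 kb, however, the medians were 1.16 with 1 to 3 exons, 1.02 with 4 to 10 and 1.05 with over 10. Among genes over 50 kb they were -0.40, -0.46 and -0.53. Exon number thus separated the medians little within these length classes. The called shares still varied in places. From 5 to 20 kb the lower share was 13.1% with 1 to 3 exons, 8.62% with 4 to 10 and 4.94% with over 10. The higher share there was 26.5%, 24.0% and 26.8%.

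**Figure D4:**
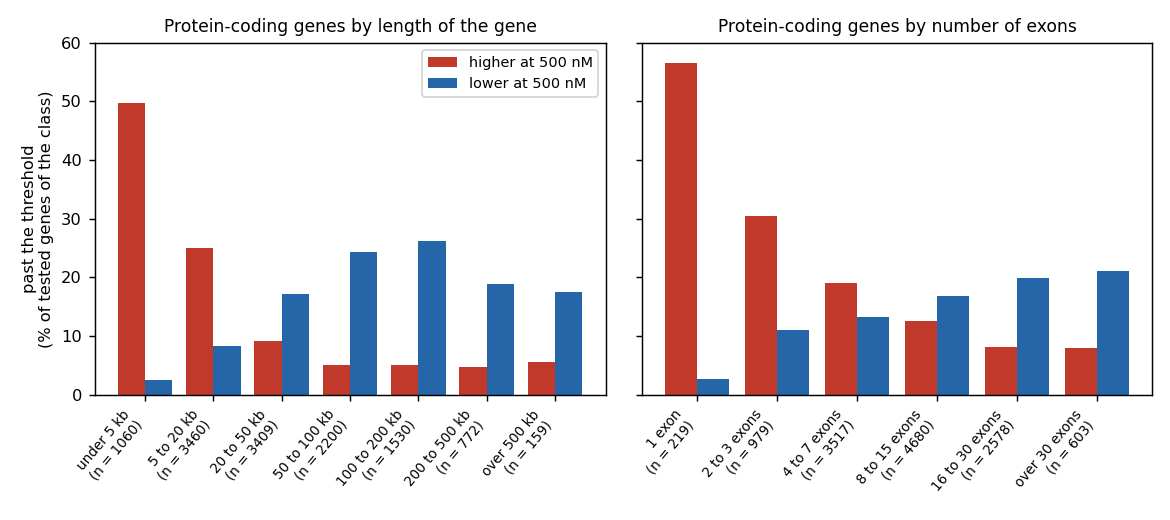
Bars give the share of tested protein-coding genes that were higher or lower at 500 nM, by gene length on the left and by the most exons of one transcript on the right. The higher share falls from 49.8% under 5 kb to 5.10% at 100 to 200 kb while the lower share rises from 2.55% to 26.2%.

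Noncoding genes were mostly on the side of the rises. Of 2037 tested genes that are not protein-coding 916 were higher (45.0%) and 98 lower (4.81%), with a median of 1.20 against -0.19 for protein-coding genes. Antisense genes were higher in 52.2%, long intergenic noncoding RNAs in 43.9% and processed pseudogenes in 58.4%. Not every class was on that side. Of 153 transcribed unprocessed pseudogenes 13.7% were higher, below the 19.5% of all tested genes, and 5.23% were lower. The 41 sense-overlapping genes had a median of -0.49, with 24.4% higher and 14.6% lower. Whether reads were counted by strand is not given in the sources used here, and pseudogene reads can come from the parent gene, so the source of these reads is uncertain. MIR663AHG, a microRNA host gene, rose from 1.03 to 176 CPM in Hep3B and from 1.56 to 323 CPM in Huh7 (7.55 ± 0.51, adjusted p 2.34e-46). CTB-129P6.7, with 12 and 308 counts in Hep3B and 25 and 252 in Huh7, overlaps APOE and APOC1 on the same strand, and its reads cannot be told from theirs.

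Other noncoding rises were RP11-667F14.1, which overlaps TES on the opposite strand (0 and 165 counts in Hep3B and 4 and 115 in Huh7) and SSSCA1-AS1 (18 and 198 counts in Hep3B and 3 and 139 in Huh7). The falls were led by LINC01314 (156 and 7 counts in Hep3B and 633 and 13 in Huh7), RP11-284F21.10 (1226 and 78 counts in Hep3B and 20 and 1 in Huh7), RP11-350F4.2 (439 and 35 counts in Hep3B and 250 and 9 in Huh7), the pseudogene ABCC6P1 (511 and 44 counts in Hep3B and 239 and 8 in Huh7) and C14orf132 (621 and 40 counts in Hep3B and 162 and 9 in Huh7). All of these noncoding genes had 78 counts or fewer in their lower library of each line, and RP11-284F21.10 rested on Hep3B, with a log2 fold change of -2.04 (adjusted p 0.155) when the treated Hep3B library was left out.

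Opposite responses of the lines were rare. Of the 9711 genes that reached 100 counts in a library of both lines, 898 were at least 2-fold higher in both and 850 at least 2-fold lower in both, while 6 were higher in Hep3B and lower in Huh7 and 1 the reverse. DUSP5, a phosphatase of the ERK kinase, stood at 4.12 CPM in control and 14.5 CPM in treated Hep3B, and 93.7 and 42.3 CPM in Huh7. ANXA3, an annexin, stood at 45.2 CPM in control and 147 CPM in treated Hep3B, and 162 and 73.1 CPM in Huh7, and TNFRSF11B, a decoy receptor, at 7.58 CPM in control and 17.1 CPM in treated Hep3B, and 52.9 and 16.3 CPM in Huh7. In each of these the Huh7 control was the highest library. GPR37, a receptor, was the reverse case, at 22 CPM in control and 9.73 CPM in treated Hep3B, and 14.5 and 31.8 CPM in Huh7. With 1 library per condition and line, these differences have no replicate check.

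SNU449 gave a different picture at the same dose. The log2 ratios of SNU449 had a Pearson correlation of 0.035 with Hep3B and 0.011 with Huh7 across 13403 genes. The difference between the response of SNU449 and that of the pair, tested as an interaction in 6 libraries with 1 residual degree of freedom, which lies between Hep3B and Huh7 only, passed the threshold in 650 of 13743 genes (4.73%). SNU449 lay below the pair in 592 (4.31%) and above it in 58 (0.422%), and with library totals in 167 and 256. Of the 2279 genes higher in the pair and part of this fit, the difference passed with SNU449 below in 573 and above in none. Their median log2 change was 1.74 in the pair and -0.01 in SNU449. Of the 2044 lower genes the difference passed with SNU449 above in 56, with medians of -1.20 and -0.01. These genes were chosen by the response of the pair, which the interaction subtracts. The directions and the medians of the pair were thus largely set by that choice and are not a test.

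AMH showed the contrast most clearly, with 152 counts in control and 193 in treated SNU449 and a difference of -6.98 on the log2 scale. GEM went from 165 to 220 counts in SNU449 (-6.86) and MAVS from 2984 to 2746 (SNU449 above the pair by 2.43). FOS rested on 3 and 17 counts there (-5.96). Mitochondrially encoded genes took 4.32% and 4.47% of counts in SNU449. The liver genes ALB (19 and 27 counts) and AFP (23 and 18) had few counts there, and A1CF, PRLR, ATP2B2 and KANK4 had 1 count or none, so their falls could not be compared. By the protocol the SNU449 cells were treated for longer than the pair, and line and time cannot be told apart.

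**Figure D5:**
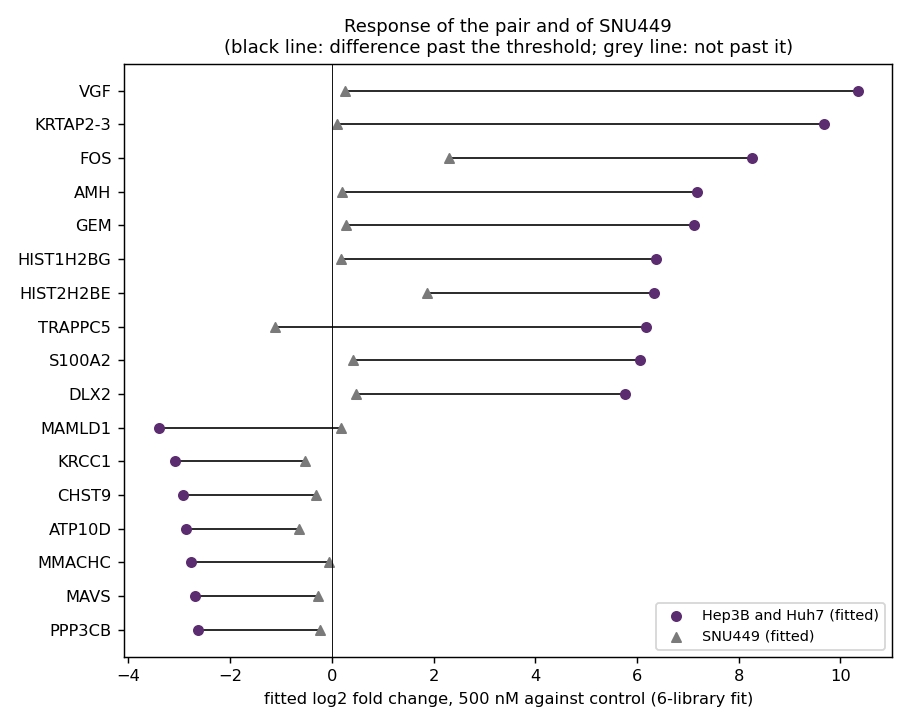
Fitted log2 fold change at 500 nM in the Hep3B and Huh7 pair (circles) and in SNU449 (triangles) for the named protein-coding rises and falls with at least 10 counts in 1 SNU449 library. Black lines mark differences past the threshold, and SNU449 lies near 0 for most genes while the pair spans from about -3 to above 10. The genes were chosen for large changes in the pair.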

How the data were processed

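Polyadenylated RNA of 9 libraries was prepared with the TruSeq RNA sample kit, per the labels' protocols; the labels do not say whether the kit kept strand. The deposited values are raw read counts per Ensembl gene for 32990 genes, made by the authors, and HISAT2, HTSeq and the build GRCh38 are named in the submitters' processing notes. Neither tool versions nor the annotation release nor the strand setting appear in the sources used here.

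Counts of the 4 libraries were filtered with filterByExpr by dose (14627 genes kept), scaled with TMM factors and tested with edgeR 4.0.16 (glmQLFit and glmQLFTest, terms for line and dose) in R 4.3.3. The adjusted p is that of Benjamini and Hochberg over all tested genes, and the threshold was 0.05. The SE is that of the fitted log2 fold change. The difference of SNU449 was an interaction term over 6 libraries (13743 genes). Ratios within a line used TMM-scaled CPM with a prior count of 2 and carry no test. The cell line pairs the libraries. Across genes, deviations of the libraries of a line from their group means had a correlation of 0.825.

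Alternatives were DESeq2 1.42.0, limma-voom (limma 3.58.1), other scalings, filters and libraries left out. The fitting scripts were tested on simulated counts. Gene types and the positions behind gene lengths came with the deposited counts. Exon numbers and strand came from GENCODE release 29 (GRCh38), matched by Ensembl identifier, and promoters from RefSeq. Named genes were taken from CDK12, CDK13 and CCNK; the 12 largest rises and 12 largest falls of called protein-coding genes that moved one way in both lines and averaged log2 CPM 3 or more; 5 each of other biotypes by that rule; 5 each with the largest gain and loss of CPM; up to 4 per list of 52 gene lists by smallest p; 5 each way with opposite ratios; and 5 by the interaction. Other list members were named after their values were seen. Members and lists were chosen with earlier results of these data known.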

Additional observations from a re-analysis of the deposited data

Results flagged for a closer look

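The response of SNU449 at 500 nM differed from that of the Hep3B and Huh7 pair, by edgeR's interaction test with an adjusted p under 0.05, for many of the genes described above. Values are the SNU449 log2 fold change minus that of the pair, so a negative value means that the SNU449 response lay below that of the pair. Each SNU449 condition is 1 library, fitted with 1 residual degree of freedom. That degree of freedom lies between Hep3B and Huh7, and SNU449 has no replicate of its own, so its libraries are assumed to vary like the others. The stated treatment time also differs, so line and time cannot be told apart. Many of the genes were named for their response in the pair, so the sign of the difference was largely set by that choice.

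Among the largest rises the differences were -10.07 for VGF, -9.59 for KRTAP2-3, -6.98 for AMH, -6.86 for GEM, -7.31 for TRAPPC5, -5.64 for S100A2 and -5.30 for DLX2. VGF, KRTAP2-3, TRAPPC5, DLX2, FOS, FOSB, EGR1, CXCL2, HIST1H2BG, SNAI1, MIR663AHG and SSSCA1-AS1 rest on 39 counts or fewer in each SNU449 library. Immediate early genes gave -5.96 for FOS, -5.19 for FOSB, -5.20 for JUNB, -5.36 for EGR1, -4.83 for IER2, -4.92 for IER3, -4.33 for IER5, -4.56 for KLF6 and -4.08 for ATF3. Growth arrest and stress genes gave -4.99 for GADD45B, -4.55 for GADD45A, -4.47 for PLK2, -2.36 for CDKN1A, -2.13 for BMF and -2.00 for PPP1R15A, and the chemokines -3.98 for CXCL2 and -3.33 for CXCL8.

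Histone genes gave -4.45 for HIST2H2BE, -6.19 for HIST1H2BG and -2.18 for HIST1H1C. TSC22D3 gave -3.78, TXNIP -4.01, MT2A -2.88, APOE -3.04, SNAI1 -3.64 and TAGLN -2.45. NR1D1 gave -2.63, PER1 -2.15, ISG15 -2.55, FTH1 -2.39 and GABARAP -2.64. HEXIM1 gave -2.89 and CDK11A -2.75. For the YAP and SMAD targets the values were -3.49 for CYR61, -3.02 for CTGF and -2.34 for ID2. Abundant transcripts gave -2.71 for MT-CO1, -3.23 for MT-RNR2, -2.57 for RPLP0, -2.61 for RPS15 and -2.59 for GAPDH. Noncoding genes gave -3.01 for SNHG1, -2.49 for MALAT1, -6.86 for MIR663AHG and -6.28 for SSSCA1-AS1.

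Genes that fell in the pair lay higher in SNU449, by 3.57 for MAMLD1, 2.71 for MMACHC, 2.62 for CHST9, 2.55 for KRCC1, 2.43 for MAVS, 2.41 for PPP3CB, 2.22 for ATP10D, 2.32 for CSTF3, 2.32 for RP11-284F21.10, 2.05 for XRCC2 and 1.99 for XIAP.

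For a few other genes the ratios of Hep3B and Huh7 pointed in opposite directions. The Hep3B log2 ratio minus that of Huh7 was 2.95 for MAP2, 2.93 for DUSP5, 2.85 for TNFRSF11B, 2.84 for ANXA3, 2.57 for COMMD1 and -2.30 for GPR37. These differences were not tested, since each line has 1 library per condition.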

How the results depend on the processing

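With no replicate block edgeR's quasi-likelihood test called 0 genes (2613 at an unadjusted p under 0.05), limma-voom called 0 (2539 unadjusted) and DESeq2 called 1362 (1179 higher, 183 lower). The limma-voom and DESeq2 fits without the line term, and DESeq2 with library totals, were chosen after seeing the data. Scaling moved the balance of directions. Library totals gave 7591 calls (1502 higher, 6089 lower), library totals without mitochondrially encoded genes 1698 higher and 5302 lower, and DESeq2 with library totals 1082 higher and 4854 lower. DESeq2 with its own size factors called 3231, of which 952 were lower. Leaving out 1 library at a time in the fit with the 250 nM libraries gave 4485 to 6509 calls (2704 to 3517 higher, 1781 to 2992 lower). Leaving out 1 library with no replicate block gave 0 calls in edgeR in each case (1075 to 1873 unadjusted).

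For the difference of SNU449 from the pair, library totals gave 423 calls (256 above, 167 below), no filter on low counts 410 (361 below), all 9 libraries 1076 (217 above) and DESeq2 6 above. CCNK was -0.44 with library totals (also in DESeq2) and -0.30 without mitochondrial genes, and NFKBIA -0.13 with library totals in edgeR and DESeq2. Over all fits that leave out 1 library, with and without the line term, the log2 fold change ran from -1.14 to 12.09 for KRT17, -0.54 to 0.18 (0.01 without the Hep3B control library) for DDIT3, -0.04 to 1.25 for NFKBIA, -1.23 to 6.92 for MT2A, -2.65 to 5.71 for AFP, -1.11 to 0.41 for PALB2, -1.36 to 0.19 (0.12 without the Huh7 control library and line term) for ERBB2, -10.99 to 4.62 for LGSN, -4.35 to 1.60 for RPS6KA3 and -6.40 to 1.96 for RP11-284F21.10. Effects of leaving out a library are mixed with the difference of the lines where the line term is absent, and the cause of the other changes was not tested.

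The limits are those of 4 libraries. Treated Huh7 held 5701981 counts, so genes under 0.764 CPM there are at the floor. All results are relative within a library, the spread of each gene was borrowed from other genes, and counting intervals cover counting error only, since no molecular identifiers are described.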

Other observations

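Lists not described above are given by their counts, beside a background of 19.5% higher and 14.4% lower over all tested genes. Cullins and other ubiquitin ligase genes gave 8 lower and none higher of 27 (29.6%), with 3 lower by DESeq2 and 23 with library totals. HUWE1, a ubiquitin ligase, fell from 221 to 132 CPM in Hep3B and from 464 to 202 CPM in Huh7 (-0.97 ± 0.40, adjusted p 0.0438), and CUL1, the scaffold of the SCF ligases, fell from 72 to 36.5 CPM in Hep3B and from 98.4 to 34.6 CPM in Huh7 (-1.24 ± 0.36, adjusted p 0.00332). The call of HUWE1 ended with DESeq2 size factors in edgeR (log2 fold change -0.90, adjusted p 0.0634) and without the control Huh7 library (log2 fold change -0.79, adjusted p 0.113). Chromatin modifiers gave 7 lower (19.4%) and 1 higher (2.78%) of 36, with a median of -0.49. The higher share was far below that of all genes. With library totals 25 were lower and none higher, and with DESeq2 5 were lower. KMT2A, a histone H3 methyltransferase, fell from 82.5 to 44.6 CPM in Hep3B and from 85.1 to 26 CPM in Huh7 (-1.29 ± 0.36, adjusted p 0.00237), and the demethylase gene KDM6B rose from 56.4 to 101 CPM in Hep3B and from 50 to 186 CPM in Huh7 (1.36 ± 0.37, adjusted p 0.00178). The call of KDM6B ended with library totals (log2 fold change 0.60, adjusted p 0.236) and without the treated Huh7 library (log2 fold change 0.68, adjusted p 0.0878). Of 20 cytosolic tRNA synthetases 6 were lower and 2 higher, while of 31 proteasome subunits 6 were higher (19.4%, the share of all genes) and none lower, a list median of 0.29 that turned to -0.47 with library totals.

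Clock genes gave 4 higher (26.7%) and 2 lower (13.3%) of 15. NR1D1, the clock repressor REV-ERB alpha, rose from 6.59 to 31.1 CPM in Hep3B and from 4.21 to 48.1 CPM in Huh7 (2.85 ± 0.39, adjusted p 9.21e-12), and PER1 rose from 15 to 43.2 CPM in Hep3B and from 23 to 140.3 CPM in Huh7 (2.07 ± 0.37, adjusted p 4.48e-07). Among interferon genes 3 of 13 were higher (23.1%) and 2 lower (15.4%), near the background. ISG15, a ubiquitin-like modifier, rose from 8.43 to 54.9 CPM in Hep3B and from 11.9 to 71 CPM in Huh7 (2.64 ± 0.37, adjusted p 4.29e-11). Of lysosome and autophagy genes 9 of 26 were higher and 1 lower, led by GABARAP (2.53 ± 0.40, adjusted p 6.51e-09), with 4 higher and 7 lower under library totals.

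Of the remaining lists, heat shock proteins gave 4 higher and none lower of 13 (median 0.20, or -0.56 with library totals), NRF2 targets and glutathione enzymes 4 higher and 1 lower of 14, and translation initiation factors 8 higher and 3 lower of 29. Wnt pathway genes gave 1 higher and 4 lower of 17, Mediator subunits 1 higher and 3 lower of 28, and centrosome genes none higher and 3 lower of 25. RNA exosome and decay genes gave 1 higher and 4 lower of 22, splicing factors 4 and 3 of 21, cholesterol genes 2 and 1 of 20, bile acid and xenobiotic genes 3 and 1 of 11, fatty acid genes 3 and 6 of 24, and insulin and mTOR genes none and 3 of 22. FTH1, the ferritin heavy chain of iron storage, rose from 701 to 3341 CPM in Hep3B and from 1543 to 7116 CPM in Huh7 (2.23 ± 0.48, adjusted p 4.69e-05).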
